A study of Macaca radiata with 6 samples.

Results

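The genes described here encode enzymes that move hydrogen between a cofactor and a steroid, retinoid, alcohol or aldehyde. They were taken by gene symbol alone, as the hydroxysteroid dehydrogenases (HSD3B, HSD11B, HSD17B and HSDL series), the DHRS and RDH short-chain dehydrogenases, the aldo-keto reductases of families AKR1 and AKR7, the ALDH and ADH families and the steroid 5-alpha reductases. HSD3B2, HSD17B1 and HSD17B4 were left out by the same rule. The symbols, not the signals, define the group, but the families and the genes left out were set with earlier results of these data known. The log2 fold changes of those 3 were -1.09, -1.62 and -0.59 after PGF2alpha. They did not pass an adjusted p of 0.05 by limma (0.172, 0.0533 and 0.0579), and the groups of HSD3B2 overlapped. The rule found 78 probe sets (groups of array probes that read 1 transcript) for 49 genes, out of 14132 genes with a single symbol on the array. Many well known relatives, such as HSD3B1, HSD11B2, AKR1C1, AKR1B1 and ALDH1A1, had no probe set with a single symbol here and are not analysed here. ALDH2, whose symbol has no subfamily letter, is not taken by the rule either, although it has such probe sets.

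RNA came from the corpus luteum of female bonnet monkeys (Macaca radiata) on day 10 of the luteal phase. In 3 samples the monkeys had received 3 intramuscular injections of prostaglandin F2-alpha (PGF2alpha) at 59 µg/kg, and in 3 samples phosphate-buffered saline, called vehicle here. Tissue was removed 24 h after the injections in both groups. Every sample was read on an array designed for the rhesus macaque, so a probe set that mismatches the bonnet monkey transcript reads low in both groups. The values are linear MAS5 signals, and no detection call was used, so a low signal is not known to lie above background. The labels do not tie arrays to animals, so the tests reflect only how much the samples of a group differ. The comparison asks how transcripts of these enzymes in the primate corpus luteum differ 1 day after a luteolytic prostaglandin.

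The corpus luteum is a temporary gland that makes progesterone and, in primates, estrogen, and PGF2alpha can bring about its regression. Hydroxysteroid dehydrogenases set which form of a steroid is active by oxidising or reducing a hydroxyl or keto group. Retinol is oxidised first to retinaldehyde by RDH and DHRS enzymes and then to retinoic acid, the ligand of nuclear receptors, by the ALDH1A enzymes. Other aldehyde dehydrogenases, with AKR enzymes and ADHs, clear reactive aldehydes or serve the breakdown of amino acids, fatty aldehydes and folate.

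The arrays were comparable in overall signal, with medians between 115 and 134. The ratio of 3-prime to 5-prime beta-actin probe sets, a sign of RNA quality, was 1.73 to 1.78 in the PGF2alpha group and 1.49 to 2.25 in the vehicle group. For GAPDH it was 1.26 to 1.42 and 1.31 to 1.52 (exact permutation p = 1.0 and 0.7, two-sided, smallest possible 0.1). The tissue carried its defining transcripts: 7 of 12 luteal steroidogenic markers were on the array and all 7 were bright enough to test. Of these markers 1 fell (against 2.31% of all tested genes) and 0 rose (against 3.76%). Their summed signal was 79388 and 87078 in PGF2alpha replicates 1 and 2, 143090 in PGF2alpha replicate 3, and 158672 to 188667 in the vehicle arrays. Macrophage markers moved the other way, with 7 of 15 higher (against 3.76% of all tested genes) and 0 lower (against 2.31%). Of the 7, MARCO (394 to 670 in the treated, 21.1 to 115 in the vehicle arrays) entered the test only through the treated arrays. The macrophage sums were 54944 to 88903 in the treated arrays and 22010 to 38345 in vehicle. In whole tissue, fewer cells of a type and less RNA per cell cannot be told apart. PGF2alpha replicate 3 therefore lay nearest to vehicle in luteal markers, and the effect of leaving it out is given beside the main results. Arrays were hybridised in 2 runs, with PGF2alpha replicate 2 and vehicle replicate 4 in run 2 and the other 4 arrays in run 1.

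Few members passed the test, and those that did lay on both sides. Of the 78 probe sets 50 were bright enough to test, at or above the median of their array on at least 3 arrays, and they covered 33 genes. With limma over 26944 probe sets and Benjamini-Hochberg adjustment, 4 of the 50 passed an adjusted p of 0.05 (8.0%, against 5.01% of all tested probe sets). The probe set that rose was that of ALDH1A3 (2.0%, against 3.02% of all), and the 3 that fell read HSD17B8, HSDL2 and ALDH9A1 (6.0%, against 1.99%). Read by the brightest probe set of each gene, 2 of 33 genes passed, a share of 6.06% against 6.07% of 9980 genes. Of these, 1 rose (3.03%, against 3.76%) and 1 fell (3.03%, against 2.31%). The share of tested members past the threshold was thus close to the background. Without PGF2alpha replicate 3 the numbers were 6 of 50 probe sets (against 7.06% of all) and 4 genes (12.1%, against 8.66%), DHRS9 and ALDH1A2 being added. Without PGF2alpha replicate 1, PGF2alpha replicate 2, vehicle replicate 4 or vehicle replicate 6 only the ALDH9A1 probe set passed and 0 genes did. Without vehicle replicate 5 the numbers were 2 and 1. Over all tested probe sets the share past the threshold moved likewise, to between 0.828% and 2.35% without each of these 5 arrays.

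Log2 fold changes, given throughout on the log2(signal + 40) scale as PGF2alpha minus vehicle, were negative in 23 of the 33 tested genes (69.7%, against 52.0% of all tested genes). Their median was -0.27, against -0.02 over all tested genes, and it was -0.23 within run 1 and -0.35 within run 2. Without PGF2alpha replicate 3, 25 of 33 were negative (75.8%, against 52.0%) and the median was -0.32. The treated and vehicle groups did not overlap in 15 genes (45.5%, against 30.9% of all), 4 of them higher (background 15.8%) and 11 lower (background 15.1%). At probe set level the groups did not overlap in 22 of 50 (44.0%, against 26.8%). The sizes were mostly small, with a median absolute log2 fold change of 0.38 against 0.24 over all genes. With every array scaled to the same median, 21 of 33 were negative and the median was -0.22.

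**Figure D1:**
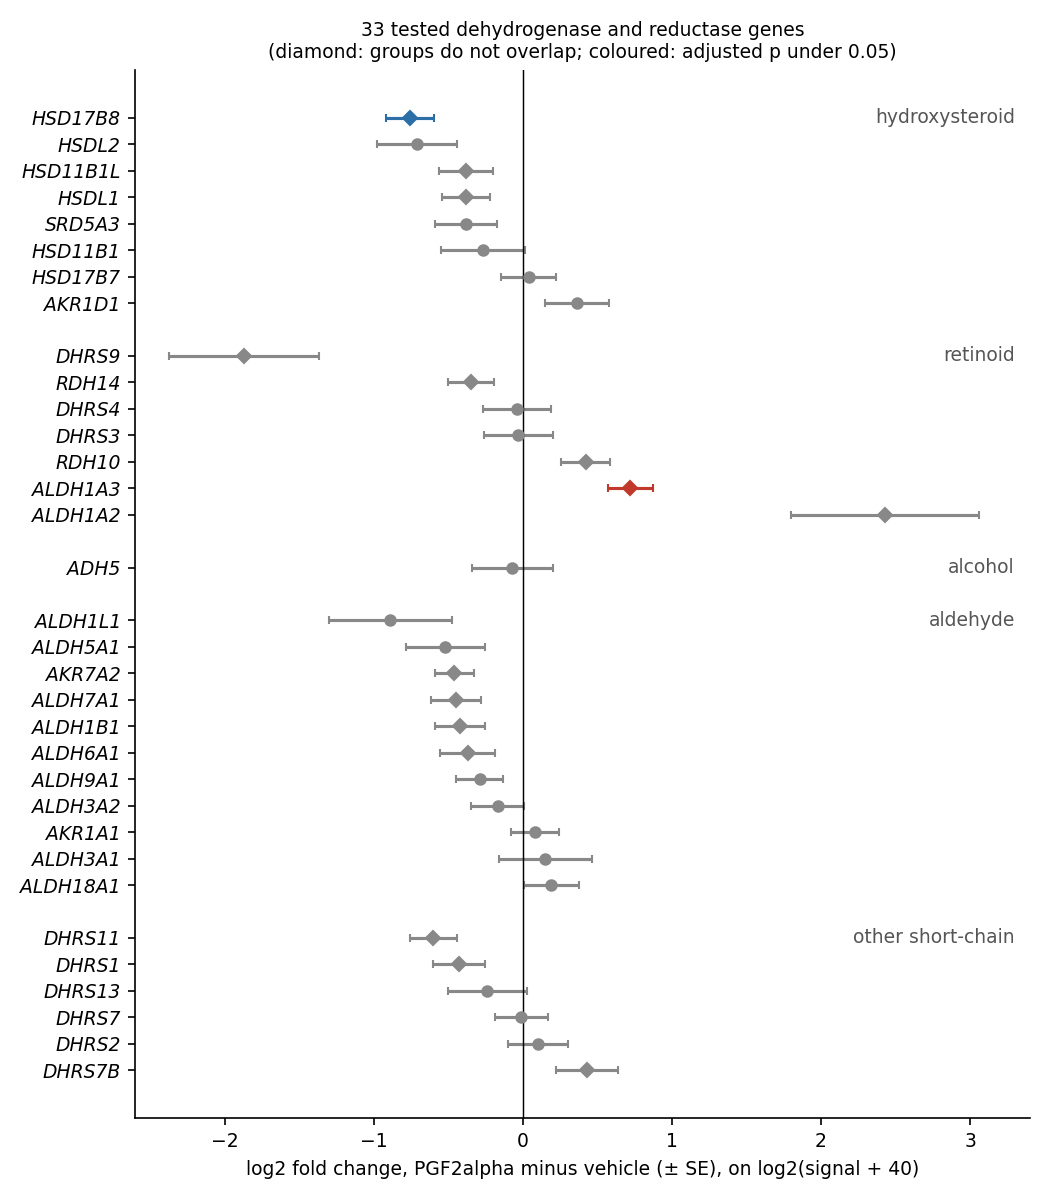
Log2 fold changes (x axis, ± SE, PGF2alpha minus vehicle, 3 arrays a group) of the 33 tested genes in 5 functional blocks. Diamonds are genes whose groups do not overlap, and colour marks an adjusted p under 0.05. HSD17B8 (-0.76) and ALDH1A3 (0.72) are the coloured points, and DHRS9 (-1.87) and ALDH1A2 (2.43) lie farthest out with the widest errors.

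In the retinoid group ALDH1A3 rose after PGF2alpha, while ALDH1A2 and DHRS9 had the largest fold changes, in opposite directions, and did not pass. Of 11 genes in this group 7 were tested, and 1 rose (14.3%, against 3.76% of all tested genes) and 0 fell (against 2.31%). The groups did not overlap in 5 of the 7 (71.4%, against 30.9% of all tested genes). ALDH1A3, which oxidises retinaldehyde to retinoic acid, read 1035, 1124 and 970 in PGF2alpha replicates 1 to 3 and 664, 635 and 554 in vehicle replicates 4 to 6. All treated arrays were above all vehicle arrays, and the spread within each group was small. It rose from 618 ± 56.9 to 1043 ± 77.5 (SD, n = 3). In limma that was 0.72 on the log2 scale with SE 0.151 and an adjusted p of 0.031. The fold change was 0.72 within run 1 and 0.73 within run 2. Only the removal of PGF2alpha replicate 3 kept the call. Removing any other array gave adjusted p from 0.0679 to 0.123, and fold changes stayed between 0.65 and 0.77.

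ALDH1A2, the related enzyme that makes retinoic acid in the embryo and in mesothelium and stroma, read 344, 2699 and 419 in PGF2alpha replicates 1 to 3 and 86.3, 149 and 89.9 in vehicle. The groups did not overlap, but PGF2alpha replicate 2 stood far above the other treated arrays. The difference of 2.43 log2 units had SE 0.632 and did not pass (adjusted p = 0.0607). Array weights brought its adjusted p to 0.0366, a block for the run to 0.04, and the removal of PGF2alpha replicate 3 to 0.046. Within runs the fold change was 1.42 and 4.44. Of the vehicle arrays only replicate 5 reached its array's median, so the probe set entered the test mainly through the treated arrays, and the size of the fold is uncertain. A dimmer probe set of ALDH1A2, which was not tested, read 78.2, 303 and 31.2 in PGF2alpha replicates 1 to 3 and 12.5 to 58.1 in vehicle, with replicate 2 again highest. That array also had the highest summed signals of macrophage markers (88903) and neutrophil markers (30862, against 3615 to 6829 in vehicle). Of 9 tested fibroblast markers 2 rose (against 3.76% of all tested genes). Fibroblast markers summed to 116573 to 133945 in the treated and 89212 to 99431 in the vehicle arrays and were highest in PGF2alpha replicate 1. Surface epithelium and stroma markers summed to 13976 in PGF2alpha replicate 2 and 11332 to 12923 in vehicle, a sum led by NR2F1 (4650) and NR2F2 (5083). Of the 7 tested in that list 0 passed by limma and 5 were negative, and the mesothelial UPK3B read 116 in that array and 191 to 294 in vehicle. The part of these cells in the ALDH1A2 signal was not tested.

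DHRS9, a short-chain dehydrogenase that oxidises retinol and 3-alpha-hydroxysteroids, read 1806 and 2745 in PGF2alpha replicates 1 and 2, 10069 in replicate 3, and 13160, 13141 and 14468 in vehicle replicates 4 to 6. The vehicle arrays were close together and all above the treated ones, while the treated arrays split, replicate 3 lying just under vehicle. The means were 4873 ± 4524 and 13589 ± 761 (SD, n = 3). The difference of -1.87 log2 units had SE 0.502 and did not pass (adjusted p = 0.0677). The SD of its log2 signals was 1.28 in the treated and 0.0793 in the vehicle group. Without PGF2alpha replicate 3 the fold change was -2.59 (adjusted p = 0.000515 by limma). Leaving out the treated array nearest to vehicle enlarges the change and narrows the spread, so that p adds no support to the main test. With array weights the fold change was -1.99 (adjusted p = 0.0332). It was -1.68 within run 1 and -2.24 within run 2. The same replicate had the highest luteal marker sum of the treated arrays, and whether DHRS9 follows the number of luteal cells was not tested.

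RDH10, which carries out the first oxidation of retinol, was read by 4 tested probe sets. Its brightest read 1550, 1792 and 1488 in PGF2alpha replicates 1 to 3 and 1059, 1121 and 1411 in vehicle. The treated arrays were all higher, by 0.42 on the log2 scale (SE 0.163, adjusted p = 0.179), and the test was not passed. The fold changes of the 4 probe sets ran from 0.16 to 0.64, all positive. RDH14 and DHRS3, which reduce retinaldehyde back to retinol, had fold changes of -0.35 (adjusted p = 0.238) and -0.03 (adjusted p = 0.956). DHRS3 lay on both sides of zero under the alternatives, and its 95% interval was -0.56 to 0.49. DHRS4, a carbonyl and retinaldehyde reductase, stood at -0.04 (adjusted p = 0.941).

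The other 4 retinoid genes, RDH5, RDH8, RDH16 and ALDH8A1, stayed below the brightness filter. RDH5, the 11-cis-retinol dehydrogenase of the eye, had a probe set at 124, 216 and 264 in the treated and 26.7, 97.5 and 76.1 in the vehicle arrays, with no overlap. With no filter its fold change was 1.19 (SE 0.377, adjusted p = 0.178). Its other probe set read 4.5 to 32.4 on the 6 arrays. RDH8 and RDH16 read at most 84.1, and ALDH8A1, a further retinaldehyde dehydrogenase, at most 128, with overlapping groups and fold changes of -0.20 and -0.18 without the filter.

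**Figure D2:**
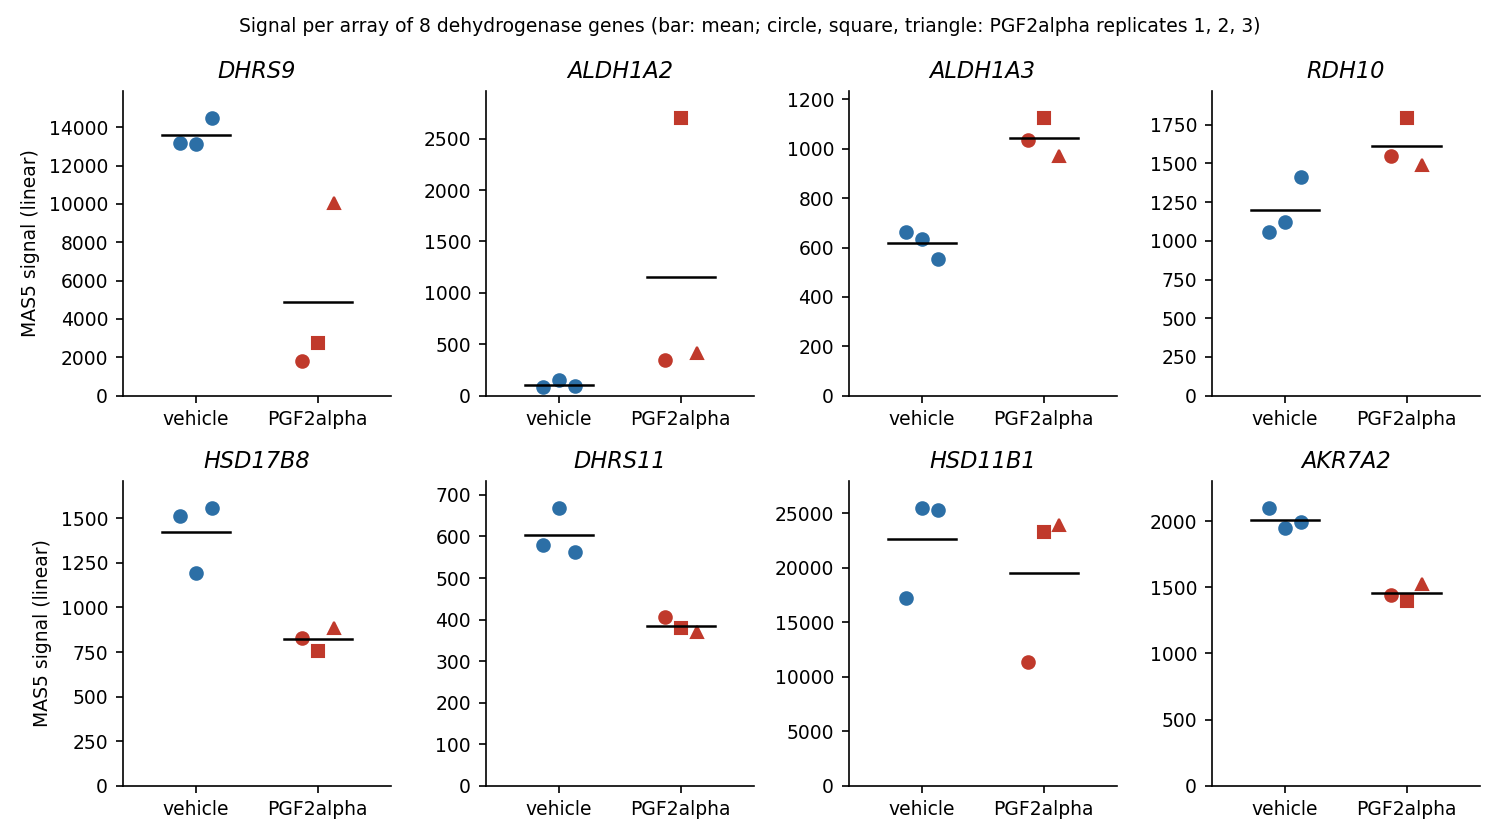
MAS5 signal (y axis, linear, from 0) on each array for 8 genes, with vehicle in blue, PGF2alpha in red and the group mean as a bar. ALDH1A3, HSD17B8, DHRS11 and AKR7A2 show tight separate groups, DHRS9 shows 2 treated arrays far below vehicle and replicate 3 at 10069, ALDH1A2 shows replicate 2 at 2699, and the groups of HSD11B1 overlap.

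Around these enzymes, the list of retinol carriers, retinoic acid clearing enzymes and retinoid receptors held 32 symbols, of which 23 were on the array and 16 were tested. It had 1 member higher (against 3.76% of all tested genes) and 1 lower (against 2.31%), and a median of -0.16 (against -0.02). CRABP2, which carries retinoic acid to its receptors, rose from 92.5 ± 80.2 to 415 ± 93.3 (SD, n = 3), and limma gave 1.95 log2 units (SE 0.424, adjusted p = 0.0342). Its vehicle mean lay below the median of every array, so the size is uncertain. RBP7, a cellular retinol-binding protein, fell from 4172 ± 334 to 2070 ± 835, by 1.06 (SE 0.241, adjusted p = 0.0398). The call of CRABP2 was kept only without vehicle replicate 6 among the single arrays left out (adjusted p 0.0252, otherwise up to 0.119), and that of RBP7 only without PGF2alpha replicate 3 (0.002, otherwise up to 0.144). Fold changes were negative in 11 of the 16. Named after their values were seen, the receptor RARB stood at 0.68 (adjusted p = 0.093) and the retinoid-responsive gene RARRES1 at 0.58 (adjusted p = 0.0769). On the negative side were PNPLA4 at -0.71 (adjusted p = 0.0937) and the retinoic acid hydroxylase CYP26A1 at -0.54 (adjusted p = 0.397). The receptors RARA and RARG stood at -0.53 (adjusted p = 0.157) and -0.72 (adjusted p = 0.281). Other tested probe sets stood at 0.26, 0.35, -0.81 and 0.48 for RARA and at 0.22 for RARG.

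Among the hydroxysteroid dehydrogenases and steroid reductases, HSD17B8 was lower after PGF2alpha and HSD11B1 was not shown to differ. Of 11 genes 8 were tested, and 1 fell (against 2.31% of all tested genes) and 0 rose (against 3.76%). Of the 8 fold changes 6 were negative (against 52.0%), and their median was -0.38 (against -0.02). HSD17B8 oxidises estradiol and is also a subunit of a mitochondrial fatty acid synthesis enzyme. It read 828, 754 and 883 in PGF2alpha replicates 1 to 3 and 1516, 1195 and 1557 in vehicle, so that the groups were clearly apart. It fell from 1423 ± 198 to 822 ± 64.9 (SD, n = 3), which limma put at -0.76 log2 units (SE 0.161, adjusted p = 0.032). The fold change was -0.65 within run 1 and -0.97 within run 2. The call was lost without PGF2alpha replicates 1 or 2 (adjusted p 0.0958 and 0.115) and without vehicle replicates 4 or 6 (0.0999 and 0.127), and with the arrays scaled to one median (0.0553). Without PGF2alpha replicate 3 it was kept, at -0.81 (adjusted p = 0.0366).

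HSDL2, a peroxisomal and mitochondrial protein of the hydroxysteroid dehydrogenase type, was lower by both of its probe sets. The brighter read 3147, 2488 and 4358 in the treated and 7787, 4141 and 4722 in the vehicle arrays, with PGF2alpha replicate 3 above vehicle replicate 5. Its fold change was -0.71 (SE 0.266, adjusted p = 0.166), and the test was not passed. The other (MmugDNA.26664.1.S1_at) read 1962, 1646 and 3155 against 4711, 3989 and 4321, with no overlap, and fell by 0.98 (SE 0.224, adjusted p = 0.0401). Its call was kept without PGF2alpha replicate 3 (adjusted p = 0.00396) and lost without each other array, with adjusted p from 0.0798 to 0.13. Within runs its fold change was -0.73 and -1.49. HSDL1, a related protein without known catalytic activity, read 787 to 875 in the treated and 981 to 1284 in the vehicle arrays. Its fold change was -0.38 (adjusted p = 0.218).

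HSD11B1 regenerates the glucocorticoid cortisol from cortisone. It read 11387, 23258 and 23941 in PGF2alpha replicates 1 to 3 and 17256, 25451 and 25315 in vehicle. PGF2alpha replicate 1 was the lowest of all arrays and the other treated arrays lay within the vehicle range. The fold change was -0.27 (SE 0.281, adjusted p = 0.641), with a 95% interval from -0.90 to 0.37, and without PGF2alpha replicate 1 it was 0.08. HSD11B1L, a relative of HSD11B1, read 437, 309 and 454 against 520, 529 and 532. The groups did not overlap, at -0.38 (adjusted p = 0.268). HSD17B7, which reduces estrone and also acts in cholesterol synthesis, stood at 0.04 (adjusted p = 0.934, 95% interval -0.38 to 0.46). Its 3 probe sets ran from -0.12 to 0.04. SRD5A3, the reductase that makes dolichol for protein glycosylation, stood at -0.38 (adjusted p = 0.339), and AKR1D1, the steroid 5-beta reductase, at 0.36 (adjusted p = 0.384). AKR1D1 read 287 to 301 in the treated arrays, and vehicle replicate 5 (300) lay among them.

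The remaining 3, HSD17B2, HSD17B13 and AKR1C2, stayed below the filter. HSD17B2, which inactivates estradiol and testosterone, read 9.18 to 31.0 in the treated arrays and 16.7 to 109 in vehicle, the high value being vehicle replicate 4. AKR1C2, which inactivates dihydrotestosterone and is a close relative of the progesterone-reducing AKR1C1, read 78.0 to 105 against 21.0 to 82.7. The single AKR1C probe set thus gives no measure of progesterone reduction.

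The list of other steroid enzymes, electron carriers and receptors had 29 symbols, of which 15 were tested. The tested genes included HSD3B2, HSD17B1 and HSD17B4, which the member rule left out. STAR, HSD3B2, FDX1 and CYP19A1 were also luteal markers, so the list is not independent of those. It had 4 lower (against 2.31% of all tested genes) and 0 higher (against 3.76%), and a median of -0.77 (against -0.02). The 4 were STAR (-0.67, adjusted p = 0.0497), the androgen-forming CYP17A1 (-1.46, adjusted p = 0.0299), CYP11B1, the adrenal 11-beta-hydroxylase (-2.24, adjusted p = 0.00648), and CYB5A, the cytochrome b5 that aids CYP17A1 (-0.87, adjusted p = 0.0315). Of these, only CYP11B1 passed whichever single array was left out, by its brightest probe set. Its other tested probe set stood at -1.01. Members past the threshold numbered 8 without PGF2alpha replicate 3, 1 without PGF2alpha replicate 1 or 2, and 2 without each vehicle array.

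Among the aldehyde dehydrogenases and reductases 11 of 14 genes were tested and 0 passed by the brightest probe set (against 6.07% of all tested genes). ALDH9A1 and AKR7A2 passed with the probe sets of each gene averaged, where the share over all genes is not given here. The fold changes were negative in 8 of 11 (72.7%, against 52.0%), with a median of -0.37 (against -0.02). At an unadjusted p under 0.05 there were 3 (27.3%, against 24.3% of all tested genes). ALDH9A1 oxidises aminobutyraldehyde and trimethylaminobutyraldehyde, the latter a step of carnitine synthesis. Its probe sets disagreed in size. The one less bright over all 6 arrays (MmuSTS.911.1.S1_at), though the brighter in vehicle, had a wide gap between groups. It read 893, 973 and 1889 in PGF2alpha replicates 1 to 3 and 5268, 5481 and 4160 in vehicle. It fell from 4970 ± 710 to 1252 ± 553 (SD, n = 3), which limma put at -2.03 log2 units (SE 0.265, adjusted p = 0.00694). The call was kept whichever single array was left out, with fold changes of -1.84 and -2.39 within runs 1 and 2.

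The probe set of ALDH9A1 brighter over all 6 arrays (MmuSTS.1355.1.S1_at) read 3621, 3520 and 2735 in the treated and 4420, 4028 and 3582 in the vehicle arrays. The groups overlapped, and the fold change was -0.29 (SE 0.158, adjusted p = 0.342). With both probe sets averaged ALDH9A1 stood at -1.16 and passed (adjusted p = 0.00824). Array by array, the log2 signal of the first minus the second was -1.97, -1.81 and -0.52 in the treated and 0.25, 0.44 and 0.21 in the vehicle arrays. The mean of this difference was lower by 1.74 after PGF2alpha (exact permutation p = 0.1, two-sided, the smallest possible). The pair was compared with its differing calls known, so that p adds no support. For HSDL2, whose probe sets also differed in call, the same difference was -0.27 (exact permutation p = 0.4, two-sided). Which stretch of the transcript each ALDH9A1 probe set reads was not analysed here.

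AKR7A2, an aldehyde reductase that also acts on succinic semialdehyde, read 1445, 1397 and 1523 in the treated and 2099, 1946 and 1992 in the vehicle arrays. The groups were tight and apart, with a fold change of -0.46 (SE 0.133, adjusted p = 0.0857). It passed in 1 of 19 tested alternatives, where the probe sets of each gene were averaged and fewer features were tested (adjusted p = 0.0456). ALDH1B1, a mitochondrial acetaldehyde dehydrogenase, was lower without overlap by both probe sets, at -0.42 (adjusted p = 0.193) and -0.67 (adjusted p = 0.114). ALDH7A1, which acts in lysine breakdown, was lower without overlap by both as well, at -0.45 (adjusted p = 0.162) and -0.81 (adjusted p = 0.242). Its dimmer probe set entered the test only through the vehicle arrays. ALDH6A1, the methylmalonate semialdehyde dehydrogenase of valine breakdown, was at -0.37 (adjusted p = 0.302) by its brightest probe set, and its other tested probe sets were at 0.00 and 0.16.

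ALDH5A1, which clears succinic semialdehyde, read 87.8, 106 and 163 against 205, 189 and 161, at -0.52 (adjusted p = 0.298). ALDH1L1, the folate enzyme formyltetrahydrofolate dehydrogenase, read 180, 25.2 and 85.9 against 179, 197 and 182. PGF2alpha replicate 1 lay within the vehicle range while replicate 2 was far below, and the fold change was -0.89 (adjusted p = 0.257). ALDH3A2, the fatty aldehyde dehydrogenase, had 3 probe sets between -0.25 and -0.17, with adjusted p from 0.366 to 0.637. AKR1A1, the general aldehyde reductase, stood at 0.08 (adjusted p = 0.823, 95% interval -0.28 to 0.44). ALDH3A1 and ALDH18A1, the latter an enzyme of proline synthesis, stood at 0.15 (adjusted p = 0.84) and 0.19 (adjusted p = 0.614). ALDH1L2, ALDH3B1 and ALDH3B2 stayed below the filter, and of these ALDH3B1 read 123 to 148 in the treated and 50.2 to 98.3 in the vehicle arrays.

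Of the list of other carbonyl and aldehyde metabolising enzymes, 23 symbols, 13 were tested. It had 1 higher (against 3.76% of all tested genes) and 3 lower (against 2.31%), and a median of -0.51 (against -0.02). MAOA, the monoamine oxidase that produces aldehydes from amines, rose from 1388 ± 88.3 to 4833 ± 1537 (SD, n = 3), which is 1.72 log2 units (adjusted p = 0.00648). The quinone reductase CRYZ fell by 1.40 (adjusted p = 0.0054), the peroxisomal trans-2-enoyl-CoA reductase PECR by 1.22 (adjusted p = 0.0147) and sorbitol dehydrogenase SORD by 1.06 (adjusted p = 0.0338). MAOA and CRYZ passed whichever single array was left out. PECR was lost without PGF2alpha replicates 1 or 2 (adjusted p 0.0582 and 0.0666). SORD stayed past the threshold when PGF2alpha replicate 3 was removed and had adjusted p from 0.0501 to 0.124 when any other array was. Members past the threshold thus numbered 2 without PGF2alpha replicate 1 or replicate 2. A further list was built around NRF2, a regulator of several AKR and ALDH genes. It mixes NRF2 itself (NFE2L2), KEAP1 and MAFG with genes inducible through NRF2, and the listed NQO1, HMOX1 and TXNRD1 had no single-symbol probe set. Of its 12 tested genes 0 passed by limma, with a median of 0.03. At an unadjusted p under 0.05 there were 3 of 12, against 24.3% of all tested genes. The export pump ABCC3 stood at 0.60 (adjusted p = 0.0754) and the cystine transporter SLC7A11 at -0.81 (adjusted p = 0.0998).

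Of the 5 alcohol dehydrogenases only ADH5, which oxidises formaldehyde bound to glutathione and reduces S-nitrosoglutathione, passed the filter. It read 4866, 4400 and 4176 in the treated and 7084, 2920 and 4985 in the vehicle arrays, so the vehicle group enclosed the treated one. The fold change was -0.07 (SE 0.274, adjusted p = 0.92, 95% interval -0.69 to 0.55). ADH7, the class IV enzyme of stomach that oxidises ethanol and retinol, was below the filter by both probe sets. The first read 210, 244 and 59.1 in PGF2alpha replicates 1 to 3 and 97.3, 12.4 and 10.6 in vehicle. The second read 124, 259 and 19.8 against 4.44, 2.42 and 2.51. PGF2alpha replicates 1 and 2 were the highest arrays by both, and replicate 3 was close to vehicle. With no filter on brightness, where 1.57% of 52766 probe sets passed, the fold changes were 1.42 (adjusted p = 0.249) and 1.73 (adjusted p = 0.143). ADH1B, ADH4 and ADH6 read at most 89.8 on any array.

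Without the filter, 0 of the 28 untested member probe sets passed by limma, and the lowest adjusted p was the 0.143 of ADH7. At an unadjusted p under 0.05 there were 5 (17.9%, against 6.82% of all 25822 probe sets below the filter). Of these 28, 21 were below the median on all 6 arrays. The groups did not overlap in 7 of 28 (against 11.8% of all probe sets below the filter).

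Among the remaining short-chain dehydrogenases, 6 of 8 genes were tested and 0 passed by limma (2 at an unadjusted p under 0.05, or 33.3% against 24.3% of all tested genes). DHRS11, a cytosolic reductase of 17-ketosteroids, read 405, 380 and 369 in the treated and 579, 668 and 563 in the vehicle arrays. The groups were far apart for their spread, at -0.60 (SE 0.156, adjusted p = 0.0609). It passed with the stricter brightness filter (adjusted p = 0.049) and with the probe sets of each gene averaged (adjusted p = 0.0321), both of which test fewer features. DHRS1 read 3253, 2436 and 3882 against 4122, 4287 and 4282, at -0.43 (adjusted p = 0.206). DHRS7B, which acts in ether lipid synthesis in peroxisomes, was higher without overlap, reading 631 to 734 against 347 to 607, at 0.43 (adjusted p = 0.278). DHRS13, DHRS2 and DHRS7 lay between -0.24 and 0.10 with overlapping groups, and DHRS7C and DHRS12 were below the filter. DHRS12 read 15.0, 54.9 and 13.9 in the treated and 62.6, 72.6 and 91.2 in the vehicle arrays.

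The treated arrays differed among themselves in how far they lay from vehicle. Of the 15 genes whose groups did not overlap, PGF2alpha replicate 3 was nearest to the vehicle mean in 10 (66.7%), against 54.2% of the 3081 such genes on the array. The median absolute difference of the 33 genes from the vehicle mean was 0.38, 0.50 and 0.29 log2 units in PGF2alpha replicates 1 to 3, against 0.31, 0.30 and 0.24 over all genes. Among genes picked with their values known, DHRS9, DHRS1, ALDH5A1 and HSDL2 were least changed in replicate 3, the groups of ALDH5A1 and HSDL2 overlapping. In ALDH1A3 the treated arrays lay between 0.62 and 0.83 log2 units above the vehicle mean. In HSD17B8 they lay between -0.87 and -0.65, in AKR7A2 between -0.51 and -0.39 and in DHRS11 between -0.65 and -0.53. Replicate 3 was close to the other treated arrays there, though still the nearest to vehicle in ALDH1A3, HSD17B8 and AKR7A2. These genes passed the test or came near it, which favours treated arrays that lie close together. Whether the difference among treated arrays depends on the gene was not tested. The within-group SD of the log2 signals had a median of 0.22 in the treated and 0.209 in the vehicle group.

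**Figure D3:**
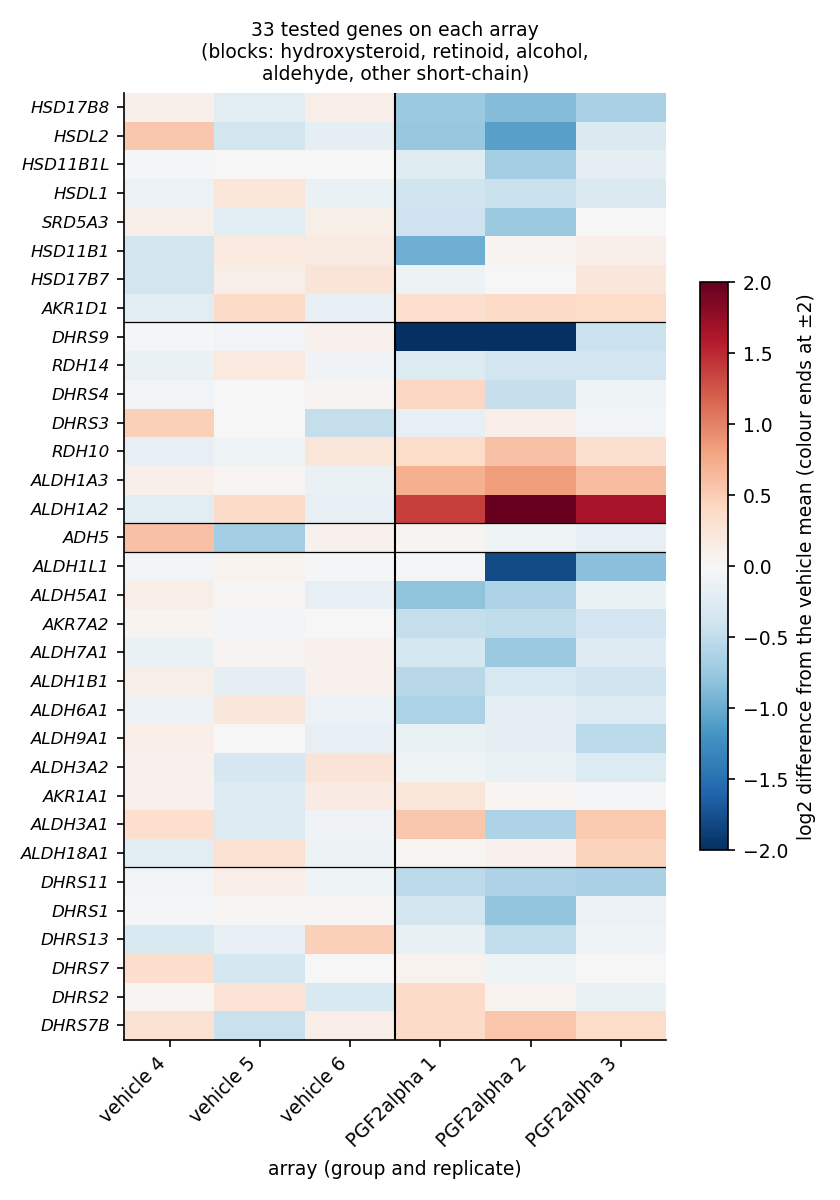
Log2 difference of each array (columns) from the vehicle mean for the 33 tested genes (rows), with lower signals in blue, higher in red and colours ending at 2 log2 units either way. DHRS9 is dark blue in PGF2alpha replicates 1 and 2 (-2.88 and -2.29) and pale in replicate 3 (-0.43), whereas ALDH1A3, HSD17B8 and DHRS11 have an even colour across the treated arrays.

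Where a gene was read more than once, the probe sets mostly had the same sign. Of 12 such genes, 10 had tested probe sets of 1 sign, and ALDH6A1 and HSD17B7 had both signs. Sizes differed most for ALDH9A1 (-2.03 and -0.29) and next for DHRS7 (-0.56 and -0.01). In both the probe set brighter over all 6 arrays showed the smaller change. For ALDH9A1 that order depends on the fall itself. In vehicle alone the probe set that fell more was the brighter (mean 4970 against 4010). Cross-hybridising designs played a small part, with 4 of 78 member probe sets of that kind and 2 of them tested.

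**Figure D4:**
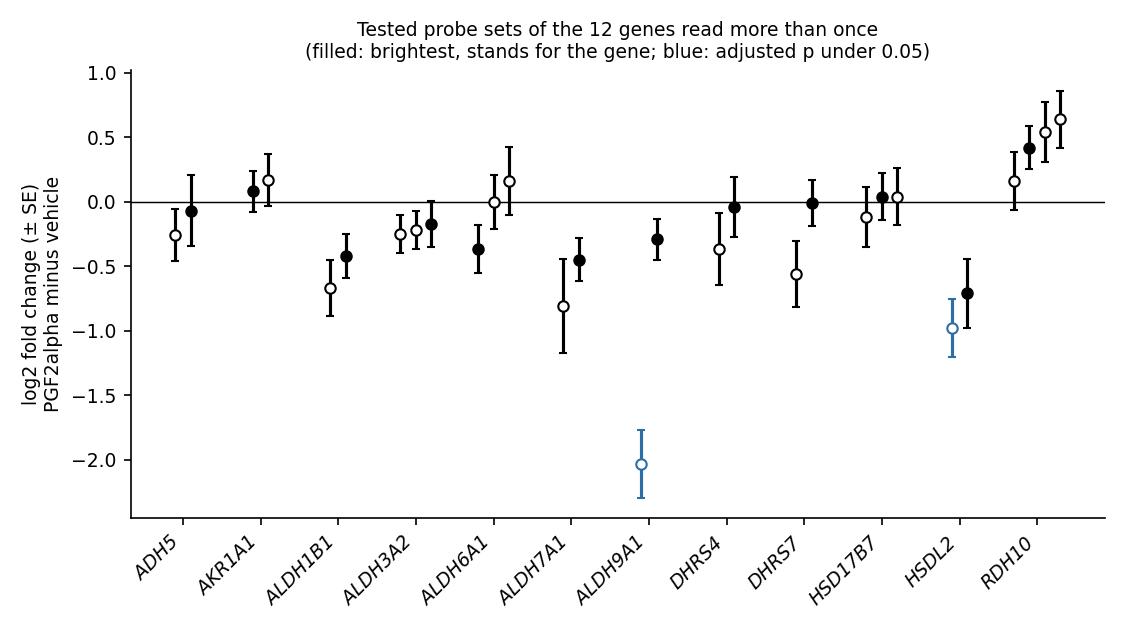
Log2 fold changes (y axis, ± SE) of every tested probe set of the 12 genes read more than once, with the brightest filled and calls in blue. The pair of ALDH9A1 lies farthest apart, and all 4 probe sets of RDH10 are above 0.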

How the data were processed

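The deposited table holds linear signal intensities for 52865 probe sets on 6 arrays, which the authors made with MAS5 (its version is not given in the sources used here), per the submitters' processing notes. They were used as deposited, since their medians were alike. Symbols came from a GEO platform annotation that can be old, and only probe sets with a single symbol were named (24969, with 361 carrying several and 27535 none). A further 2 probe sets listed a member beside other symbols and were left out. Values were log2(signal + 40). After 99 controls were removed, probe sets whose signal reached the array median on 3 or more arrays were tested, and limma 3.58.1 in R 4.3.3 (lmFit, eBayes with trend, no covariate) compared the groups, two-sided, over all 26944. A gene was read from its tested probe set of highest mean. Exact permutation tests used SciPy 1.17.1. The test was tried on simulated data first. The number of arrays limits the precision.

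Members and gene lists were chosen with earlier results of these data known. Named genes are members past the threshold, 18 of 35 listed enzymes (of the others, 16 had no single-symbol probe set and ALDH2 is outside the rule), the 8 other non-overlapping genes of largest change, and of each gene list up to 4 past the threshold or the 2 of smallest p. No sequences are given, since none were among the sources used here. Hybridisation times came from the scanner experiment files. Alternatives were other scalings, pseudocounts of 10 and 160, brightness filters, variance models, array weights, the run as a block, each run alone, no cross-hybridising probe sets (_x_at or _s_at), averaged probe sets, and each array left out with the tested probe sets kept.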

Additional observations from a re-analysis of the deposited data

How the results depend on the processing

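The number of member probe sets past the threshold (4) was 1 without the variance trend and 0 within run 1, and it ran from 1 to 6 with an array left out. The number of genes (2) was 1 with arrays scaled to one median, 0 without the trend, 4 with array weights, 0 within run 1 and 5 with averaged probe sets, and it ran from 0 to 4 with an array left out. Across all tested probe sets the count of 1351 went to 669 without the trend and 51 within run 1, and with an array left out it ran from 223 to 1903. Past-threshold counts of the retinoid (2), steroid (4), aldehyde (4) and NRF2 (0) context lists ran from 0 to 3, 1 to 8, 0 to 5 and 0 to 1. The members' median stayed between -0.35 and -0.18 under the alternatives. A few small fold changes turned sign. With an array left out, ADH5 ran from -0.41 to 0.23, AKR1A1 from -0.05 to 0.17, DHRS3 from -0.27 to 0.21, HSD11B1 from -0.45 to 0.08 and HSD17B7 from -0.14 to 0.17. ADH5 was 0.24 and DHRS3 0.12 within run 1, where HSD17B7 was -0.12. Within run 2 AKR1A1 was -0.05 and HSD11B1 0.43. With array weights DHRS3 was 0.08 and HSD17B7 -0.03, DHRS3 was 0.01 with arrays scaled to one median, and HSD17B7 was -0.01 with averaged probe sets. The cause of these changes was not tested, other than fewer arrays or features where the alternative has them. Run 2 holds 1 array a group and has no test. No paired analysis was possible because the groups share no replicate number. Low signals, not known to be above background, limit what can be said of the 16 untested genes.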
